A study of Homo sapiens with 5 samples.

Results

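EGFR and 3 genes beside it on the short arm of chromosome 7, SEC61G, LANCL2 and VOPP1, were followed in single-cell RNA libraries of MDA-MB-468, an established line of triple-negative breast cancer cells known for an amplified and highly transcribed EGFR locus. The genes were taken by symbol from the 36601 features of the deposited files, and all 4 were found and passed every filter on low values. RNA was measured in 5 libraries, 1 per group. The groups were untreated cells at 0 h, cells given PF0517515 for 6 h, cells given PF0517515 for 72 h, untreated cells at 72 h, and recovery cells collected after 72 h of PF0517515. The series' title names acetyl-CoA carboxylase, which makes malonyl-CoA for fatty acid synthesis, as the target of the inhibition. Dose, vehicle and the length of recovery are not in the labels, all groups are of the same line, and DNA copy number was not analysed here. With 1 library per group there was no spread between samples to test against, so no p-value is given. Intervals (95%) cover counting error only or, for shares of cells, only the draw of cells within 1 library. Nothing in the labels says that the libraries came from separate cultures.

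EGFR is a receptor tyrosine kinase of the cell surface. Ligands such as TGF-alpha and amphiregulin make it pair with itself or with another ERBB receptor, which starts the RAS-MAPK and PI3K cascades. The cascades then induce their own inhibitors, among them ERRFI1, the DUSP phosphatases and the Sprouty proteins, and the active receptor is tagged by CBL ubiquitin ligases and taken into endosomes. SEC61G is the small gamma subunit of the SEC61 channel, through which new secretory and membrane proteins enter the endoplasmic reticulum. LANCL2 is a LanC-like protein bound to the plasma membrane, and VOPP1 is a small membrane protein of endosomes and lysosomes that binds WWOX. SEC61G, LANCL2 and VOPP1 are commonly amplified along with EGFR in tumours.

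On GRCh38 in GENCODE 29, SEC61G (ENSG00000132432) occupies chr7:54752250-54759974 on the minus strand, and its start lies 259 kb before that of EGFR. EGFR (ENSG00000146648) occupies chr7:55019021-55211628 on the plus strand and spans 193 kb. LANCL2 (ENSG00000132434) occupies chr7:55365448-55433742 on the plus strand, with its start 346 kb beyond that of EGFR. VOPP1 (ENSG00000154978) follows on the minus strand at chr7:55436056-55572988, with its start 554 kb from that of EGFR. All 4 are protein-coding genes. An antisense RNA gene, EGFR-AS1, lies within EGFR and had a mean of 1.53 CPM (counts per 1000000 UMIs of a library), and another, AC074351.1, overlaps SEC61G and had a mean of 9.15. Whether the counting used strand is not given in the sources used here, so reads of a gene and its antisense partner may not be told apart.

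Starts in the RefSeq promoter table (GRCh38.p14) were matched for 3 of the 4 genes. The 250 bases before the RefSeq start are shown, 5′ to 3′ on the gene's own strand. For SEC61G and VOPP1 these starts and windows lie inside the GENCODE spans given above, and the EGFR window lies before its span. Counts of 3′ ends do not show from which start a transcript came. Capitals mark the SP1-type GC box GGGCGG on either strand. EGFR is at chr7:55018767-55019016 (plus strand), SEC61G at chr7:54759212-54759461 (minus strand), and the most upstream of 7 VOPP1 starts at chr7:55572503-55572752 (minus strand).
EGFR: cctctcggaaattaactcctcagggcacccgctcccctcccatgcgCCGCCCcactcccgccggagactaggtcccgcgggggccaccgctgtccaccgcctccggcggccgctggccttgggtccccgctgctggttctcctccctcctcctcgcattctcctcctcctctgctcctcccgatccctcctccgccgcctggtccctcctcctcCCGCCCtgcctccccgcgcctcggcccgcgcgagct
SEC61G: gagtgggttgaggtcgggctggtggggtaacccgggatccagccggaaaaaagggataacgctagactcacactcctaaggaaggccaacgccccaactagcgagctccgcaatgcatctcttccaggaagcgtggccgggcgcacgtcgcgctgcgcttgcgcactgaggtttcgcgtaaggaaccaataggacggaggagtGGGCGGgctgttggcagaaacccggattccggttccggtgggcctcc
VOPP1: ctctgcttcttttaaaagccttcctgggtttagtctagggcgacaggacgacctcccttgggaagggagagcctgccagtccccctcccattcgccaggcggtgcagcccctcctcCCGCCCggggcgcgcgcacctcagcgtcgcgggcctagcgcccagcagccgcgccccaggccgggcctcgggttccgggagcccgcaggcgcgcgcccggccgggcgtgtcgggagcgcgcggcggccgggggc

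The EGFR window held 2 GC boxes, and those of SEC61G and VOPP1 held 1 each. Of 34788 windows of the same length over all genes, 42.6% held at least 1 and 24.3% at least 2. The share of G and C was 73.6% in the EGFR window, 62.4% in that of SEC61G and 75.2% in that of VOPP1. The median over all windows was 58.0%. None of the 3 windows held the ATF4-type element TGATGNAA, the AP-1 site TGANTCA, the E-box CACGTG or the ER stress element (CCAAT and CCACG with 9 bases between), each searched on both strands. These letters were found in 3.16%, 6.59%, 6.31% and 0.0747% of all windows. Other starts in the table differed: the window of a second EGFR start, at chr7:55109589-55109838, held 2 AP-1 matches and no GC box, and the other 6 VOPP1 windows held 0 to 4 GC boxes and, in 1 of them, 1 AP-1 match. A match or its absence describes these letters in one window only.

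The libraries held 1927 to 3705 cells after filtering (at least 1000 detected genes and at most 20% mitochondrial UMIs), with 85376888 to 114350566 UMIs in total and a median of 26540 to 41573 per cell. UMIs are unique molecular identifiers, 1 per captured molecule. Pairs of libraries shared 0 to 7 cell barcodes. All 8 epithelial markers stood at 10 CPM or more in every library. None of 10 markers of blood, vessel, stromal and liver cells did, and these summed to 4.23 to 10.5. Of 6 basal epithelial markers, 5 stood at 10 CPM or more at 0 h and at 6 h, 3 in each 72 h library and 4 in recovery. Of the hormone receptor genes ESR1 and PGR, ESR1 passed 10 CPM at 6 h on inhibitor (12.5) and at 72 h untreated (10.1). Of the 2 genes known to be deleted in the line, SMAD4 stood at 0.525 or less and RB1 between 7.22 and 12.2. RB1 was thus not near 0, and from which part of the gene its reads came was not analysed here. The median mitochondrial share was 2.55% in recovery and 3.31% at 72 h on inhibitor, against 5.63% to 6.17% in the other 3 libraries.

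Levels are CPM of the summed cells. The kit counts molecules by their 3′ ends, so CPM is not divided by transcript length. Levels of different genes are set side by side on this scale with the limit that any counting of intronic reads, which is not known here, could raise long genes such as EGFR. Together the 4 genes took 1.42% of all UMIs at 0 h untreated, 1.53% at 6 h on inhibitor, 1.46% at 72 h untreated, 1.45% at 72 h on inhibitor and 2.04% in recovery. SEC61G supplied most of these, and the order SEC61G, EGFR, VOPP1, LANCL2 was the same in all 5 libraries. The genes did not share a profile over the libraries. EGFR was highest at 6 h on inhibitor, SEC61G in recovery, LANCL2 at 0 h and 6 h, and VOPP1 at 72 h untreated.

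**Figure D1:**
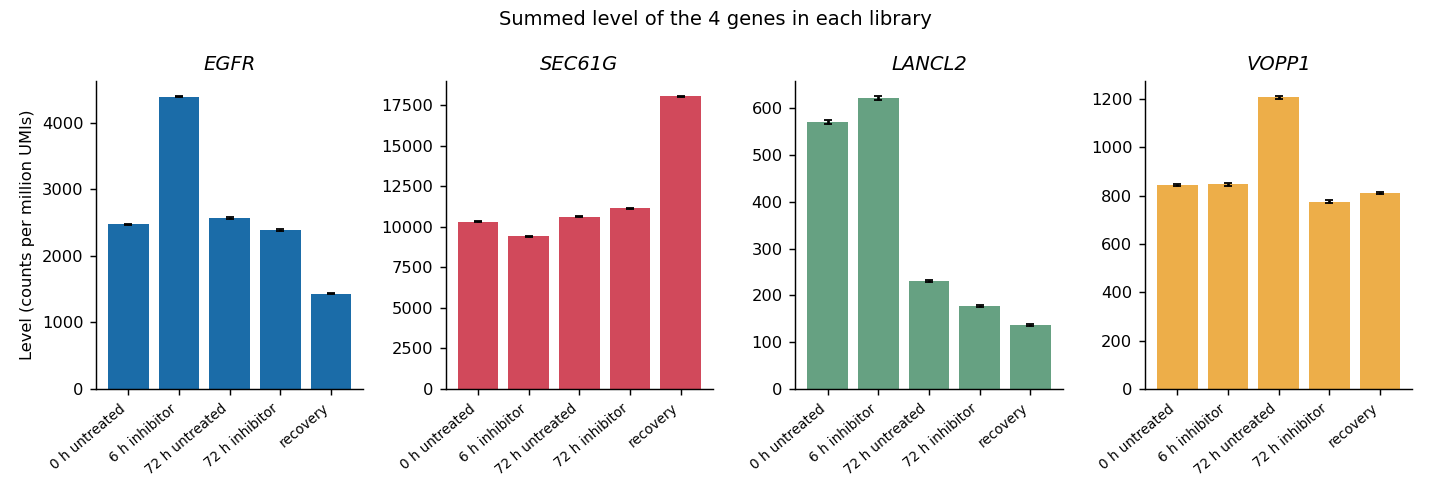
CPM (vertical axis, from 0) of each gene in the 5 libraries, with bars for the summed cells of each library and error bars for the exact 95% Poisson interval of the count. EGFR stands out at 4397 at 6 h on inhibitor and SEC61G at 18058 in recovery, while LANCL2 is at 571 and 622 in the 0 h and 6 h libraries and at 231 or less in the other 3.

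EGFR stood at 2477 CPM at 0 h untreated, 4397 at 6 h on inhibitor, 2569.9 at 72 h untreated, 2391 at 72 h on inhibitor and 1428 in recovery. The 0 h, 72 h untreated and 72 h inhibitor libraries were thus close together, the 6 h library was the only high one and recovery the only low one. The 6 h library was 1.78-fold (1.77 to 1.78) above 0 h, which placed EGFR above 95.9% of 9075 genes compared. Of the 4 genes EGFR alone was more than 1.5-fold apart in this comparison, against 11.9% of all genes.

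After 72 h on inhibitor EGFR was 1.07-fold (1.07 to 1.08) below the untreated cells of that time. With median-of-ratios scaling it was above them, at a log2 ratio of 0.13, and with the trimmed mean of M values (TMM) at 0.12. Recovery was 1.67-fold (1.66 to 1.69) below 72 h on inhibitor and 1.80-fold (1.79 to 1.81) below 72 h untreated. Among cells low in both cell cycle lists, the log2 ratio of recovery to 72 h on inhibitor was -0.45 in place of -0.74. EGFR ranked 20th of all genes by level at 6 h and 105th in recovery. Its highest library was 3.08 times its lowest, above the same ratio for 90.3% of the 3269 genes with a mean of 50 CPM or more.

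SEC61G stood at 10306 CPM at 0 h untreated, 9399.7 at 6 h on inhibitor, 10618 at 72 h untreated, 11142 at 72 h on inhibitor and 18058 in recovery. The first 4 libraries lay within a narrow band and recovery stood apart, where SEC61G ranked 1st of all genes. Recovery was 1.62-fold (1.62 to 1.62) above 72 h on inhibitor and 1.70-fold (1.70 to 1.70) above 72 h untreated. These ratios lay above 89.1% and 92.3% of the genes compared. The 6 h library was 1.10-fold below 0 h, and the 72 h inhibitor library was 1.05-fold above 72 h untreated, a direction that turned (log2 ratio -0.0057) with the cells low in cell cycle genes alone and with equal weight per cell (-0.0017).

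LANCL2 stood at 571 CPM at 0 h untreated, 622 at 6 h on inhibitor, 231 at 72 h untreated, 177 at 72 h on inhibitor and 136 in recovery. The 2 early libraries were high and the 3 later ones low, treated or not. The 72 h untreated library was 2.48-fold (2.44 to 2.52) below 0 h, and only 0.613% of 9303 genes had a lower ratio. LANCL2 at 72 h on inhibitor was 1.30-fold (1.27 to 1.33) below 72 h untreated, and recovery was 1.69-fold (1.65 to 1.73) below it. With median-of-ratios scaling the latter log2 ratio was -0.50 in place of -0.76, short of 1.5-fold. Against 0 h, the 72 h inhibitor library was 3.22-fold lower and recovery 4.18-fold lower.

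VOPP1 stood at 844 CPM at 0 h untreated, 847 at 6 h on inhibitor, 1206 at 72 h untreated, 775 at 72 h on inhibitor and 811 in recovery. Only the 72 h untreated library stood apart. The 72 h inhibitor library was 1.56-fold (1.54 to 1.57) below it and recovery 1.49-fold (1.47 to 1.501) below it. With median-of-ratios scaling, the log2 ratio of 72 h inhibitor to 72 h untreated was -0.40 in place of -0.64, short of 1.5-fold. VOPP1 was the steadiest of the 4 genes, with a highest library 1.56 times the lowest, where the median gene had 1.71.

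Counted by comparison, 1 of the 4 genes (VOPP1) was more than 1.5-fold apart between 72 h on inhibitor and 72 h untreated, where 27.4% of all genes were. For recovery against 72 h on inhibitor these were 2 of 4 (EGFR lower, SEC61G higher), against 28.5% of genes. For recovery against 72 h untreated they were 3 of 4 (EGFR and LANCL2 lower, SEC61G higher), against 36.6%. Between the untreated libraries LANCL2 was the only 1 of 4, against 22.1%. These comparisons share libraries, so their counts do not add up to separate evidence. The scaling mattered for small ratios: the median of all genes moved from -0.14 to 0.10 on the log2 scale under median-of-ratios scaling for 72 h on inhibitor against 72 h untreated, and from 0.10 to -0.16 between the untreated libraries. The share of the genes past 1.5-fold that were higher moved with it, from 27.0% to 57.8% for the first comparison and from 72.0% to 32.5% between the untreated libraries. It moved from 92.6% to 67.1% for 6 h on inhibitor against 0 h, and from 32.0% to 59.0% for recovery against 72 h untreated. For recovery against 72 h on inhibitor it was 49.8% and 53.3%.

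**Figure D2:**
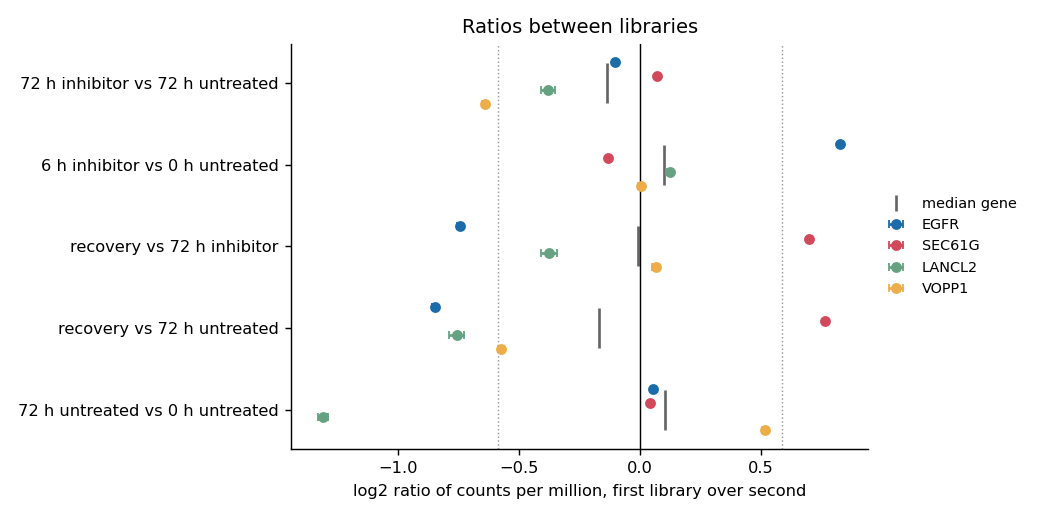
Log2 ratio of CPM (horizontal axis) for 5 comparisons of libraries (vertical axis), with 1 point per gene, exact 95% counting intervals, a grey tick at the median of all genes compared and dotted lines at 1.5-fold. EGFR lies at 0.83 for 6 h on inhibitor against 0 h and at -0.74 and -0.85 for recovery, where SEC61G lies on the other side at 0.70 and 0.77, and LANCL2 reaches -1.31 between the untreated libraries.

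The genes differ in length, and in some comparisons length moved with the ratios. In the comparison of 6 h on inhibitor with 0 h, the longest 10% of genes (171 kb or more, EGFR among them) had a median log2 ratio of 0.48, and EGFR lay above 87.8% of these 876 genes. The shortest 10%, up to 6.25 kb, had a median of -0.20, and SEC61G spans 7.72 kb with a ratio of -0.13. For recovery against 72 h on inhibitor, the longest 10% had a median of -0.19 and the shortest 0.06. EGFR lay above 17.4% of the long genes there, and SEC61G above 83.5% of the short ones. For 72 h on inhibitor against 72 h untreated the long and the short genes were nearly alike, with medians of -0.31 and -0.23. For recovery against 72 h untreated the medians were -0.49 and -0.13, and between the untreated libraries 0.30 and -0.08. The part of gene length in these ratios was not tested, and whether intronic reads were counted is not given in the sources used here.

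The EGF-family ligands were scarce, and 3 of 7 passed 10 CPM at 6 h on inhibitor or 0 h. AREG, which encodes amphiregulin, stood at 38.3 CPM at 0 h, 77.4 at 6 h on inhibitor, 27.3 at 72 h untreated, 12.5 at 72 h on inhibitor and 24.98 in recovery. At 6 h all 3 ligands were more than 1.5-fold above 0 h, AREG 2.02-fold and TGFA, which encodes TGF-alpha, 1.60-fold, where 11.9% of all genes were more than 1.5-fold apart in either direction. HBEGF, the heparin-binding ligand, was highest in recovery at 21.6 CPM and lowest at 0 h at 2.75. Recovery was the library with least EGFR and most HBEGF.

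The other ERBB receptors stood far below EGFR. ERBB2 ranged from 8.90 CPM at 0 h to 20.04 at 72 h untreated, ERBB3 from 16.02 at 72 h on inhibitor to 23.8 at 6 h, and ERBB4 did not pass 0.411. Over 25 adaptors and kinases of the EGFR cascade, 24 were measured. At 6 h on inhibitor 4 of them were more than 1.5-fold higher than at 0 h and 0 lower, with a median log2 ratio of 0.15 against 0.10 for all genes. The share of all genes past 1.5-fold in this comparison was 11.9%, so 4 of 24 was near the background. GAB2, a docking protein, was 2.06-fold higher and SOS1, which loads RAS with GTP, 1.67-fold higher. At 72 h on inhibitor 0 of 24 differed by that much from 72 h untreated, against 27.4% of all genes. In recovery 3 of 24 were higher and 2 lower than at 72 h on inhibitor, against 28.5%. The transcription factor gene STAT3 was 1.93-fold and the kinase gene MAP2K1 1.88-fold higher, and PIK3R1, which encodes a regulatory subunit of PI3K, was 1.88-fold lower.

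Of 21 genes for inhibition, ubiquitination and endocytosis of the receptor, 20 were measured. ERRFI1, which binds and inhibits the EGFR kinase, stood at 42.3 CPM at 0 h, 116 at 6 h on inhibitor, 75.2 at 72 h untreated, 46.3 at 72 h on inhibitor and 26.1 in recovery. Like EGFR it was highest at 6 h and lowest in recovery. At 6 h, 3 of the 20 were more than 1.5-fold higher than at 0 h, with CBLB, a ubiquitin ligase of the receptor, 2.28-fold higher and EPS15, an endocytic adaptor, 1.55-fold higher. In recovery, against 72 h on inhibitor, 2 were higher and 2 lower. Both counts were near or below the shares of all genes, 11.9% and 28.5%. ERRFI1 and EPS15 were 1.78-fold and 1.75-fold lower, while PTPN1, a phosphatase that acts on EGFR, and the endosomal GTPase gene RAB5A were 1.77-fold and 1.52-fold higher.

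MAPK feedback targets went both ways. Of 12 measured, 3 were higher and 4 lower by more than 1.5-fold at 72 h on inhibitor than at 72 h untreated, against 27.4% of all genes. EGR1, an immediate early transcription factor, stood at 17.8 against 85.6 CPM, and PHLDA1 at 132 against 27.4. At 6 h on inhibitor FOSL1, a subunit of AP-1, was 2.58-fold above 0 h, with 3 of 12 higher and 0 lower, against 11.9% of all genes. In recovery against 72 h on inhibitor 5 were higher and 4 lower, against 28.5% of all genes, with EGR1 2.58-fold higher and PHLDA1 4.91-fold lower.

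SEC61G was far more abundant than its partners in the channel. SEC61B, the beta subunit, ranged from 444 to 727 CPM and SEC61A1, the pore-forming alpha subunit, from 38.3 to 72.8. SEC61G exceeded SEC61B 17.9-fold to 25.1-fold and SEC61A1 227-fold to 281-fold over the libraries. SEC61B over SEC61A1 was between 9.98 and 13.7. In recovery all 3 subunits were highest, and recovery exceeded 72 h on inhibitor 1.62-fold for SEC61G, 1.64-fold for SEC61B and 1.83-fold for SEC61A1. Of 18 measured genes of the channel, signal peptidase and signal recognition machinery, 5 were more than 1.5-fold higher and 1 lower in that comparison, with a median log2 ratio of 0.15 against -0.01 for all genes. With 28.5% of all genes past 1.5-fold there, the count was near the background. SSR2, a subunit of the translocon-associated complex, was 1.62-fold higher and SRP9, of the signal recognition particle, 1.66-fold.

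LANCL1, the paralog of LANCL2, stood between 5.25 and 12.2 CPM, so that LANCL2 exceeded it 22.9-fold to 56.0-fold. LANCL3 did not pass 0.324 CPM. WWOX, the binding partner of VOPP1 and a tumour suppressor, stood at 183 CPM at 0 h, 249.5 at 6 h on inhibitor, 133 at 72 h untreated, 49.3 at 72 h on inhibitor and 24.9 in recovery. Its order over the libraries was that of LANCL2 and not that of VOPP1.

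The region around the genes was searched 5 Mb to either side of the EGFR start. It holds 192 annotated genes, 56 of them in the files, and 14 had a mean of 10 CPM or more, the 4 genes included. A second group of 9 expressed genes starts 0.868 to 1.10 Mb beyond EGFR, and GRB10, an adaptor that binds receptor kinases, starts 4.23 Mb on the other side at 23.0 CPM. CHCHD2, a mitochondrial protein gene, had a mean of 3849 CPM, between SEC61G and EGFR, and CCT6A, a subunit of the CCT chaperonin, had 1597. MRPS17 starts within NIPSNAP2 on the same strand, so reads of the pair may not be told apart, and CHCHD2 has processed pseudogenes that could share its reads. CHCHD2 was nearly level, with a highest library 1.29 times the lowest, while MRPS17, a mitochondrial ribosome gene, went from 609 CPM at 0 h to 156 in recovery.

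**Figure D3:**
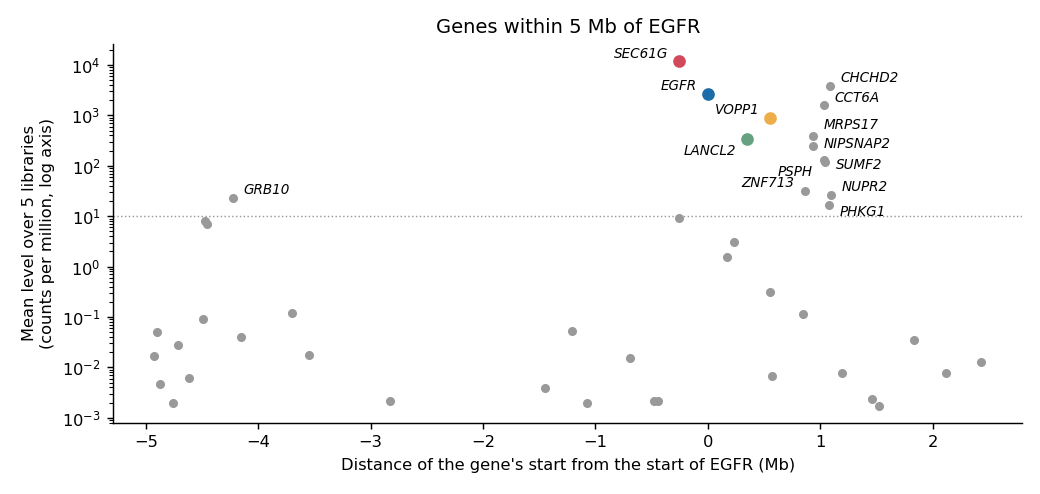
Mean CPM over the 5 libraries (vertical log axis) of genes within 5 Mb of EGFR against the distance of their start from the EGFR start (horizontal axis, Mb), with the 4 genes in colour, the other genes in grey and a dotted line at 10 CPM. SEC61G is the highest at 11905, EGFR follows CHCHD2 at 2653, and the expressed genes other than GRB10 lie between SEC61G and NUPR2.

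Profiles over the 5 libraries were compared by the root mean square distance of centred log2 CPM among genes of mean 50 CPM or more. The genes most like EGFR were MTHFD1L (0.07), PTPRK (0.08), KRT23 (0.09), ASAP1 (0.10) and MYOF (0.12). KRT23, a keratin, stood at 303 CPM at 6 h on inhibitor and 97.8 in recovery. Most like SEC61G were MZT1, PDIA4, which encodes a protein disulfide isomerase of the endoplasmic reticulum, and SRSF11. PDIA4 stood at 56.5 CPM at 72 h on inhibitor and 99.6 in recovery. Nearest to LANCL2 were CAMK2N1, PDCL3 and NETO2, and nearest to VOPP1 were TANK, PHF6 and ZBTB8OS. The 4 genes were not close to each other by this measure. The smallest distance was 0.45, between SEC61G and VOPP1, and the largest 1.16, between SEC61G and LANCL2. By rank the closest was EGFR, 344th of 3238 genes from LANCL2. These distances rest on 5 points each.

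For per-cell values, kept cells were randomly thinned to 10000 UMIs, which left 1793 to 3678 cells per library and set aside 19 to 242 shallower ones. Doublets were not removed. EGFR had a median of 21 UMIs per thinned cell at 0 h, 40 at 6 h on inhibitor, 24 at 72 h untreated, 21 at 72 h on inhibitor and 12 in recovery. At 6 h 85.9% (84.6% to 87.2%) of cells lay above the 0 h median, where 47.8% of the 0 h cells did. In recovery 17.3% (16.02% to 18.6%) lay above the median of 72 h on inhibitor. Intervals on shares of cells take the cells of a library as separate draws and the reference median as fixed. They do not cover spread between cultures, so they do not give the precision of a treatment effect. The shift at 6 h ran through the whole range of cells: the 10th percentile went from 6 to 18 and the 90th from 45 to 72.

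SEC61G had a median of 101, 92, 104, 102 and 171 UMIs in the same order of libraries. In recovery 90.8% (89.8% to 91.8%) of cells lay above the 72 h inhibitor median. LANCL2 had medians of 5, 6, 2, 1 and 1, and 6.02% (5.17% to 6.95%) of the 72 h untreated cells lay above the 0 h median. Cells with no LANCL2 UMI among the 10000 made up 2.12%, 2.21%, 15.2%, 26.0% and 32.7%. VOPP1 had medians of 8, 8, 12, 7 and 7. At most 1.51% of cells were at 0 for EGFR, SEC61G or VOPP1 in any library. Shares without a UMI at this depth do not show that a cell lacks the RNA.

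**Figure D4:**
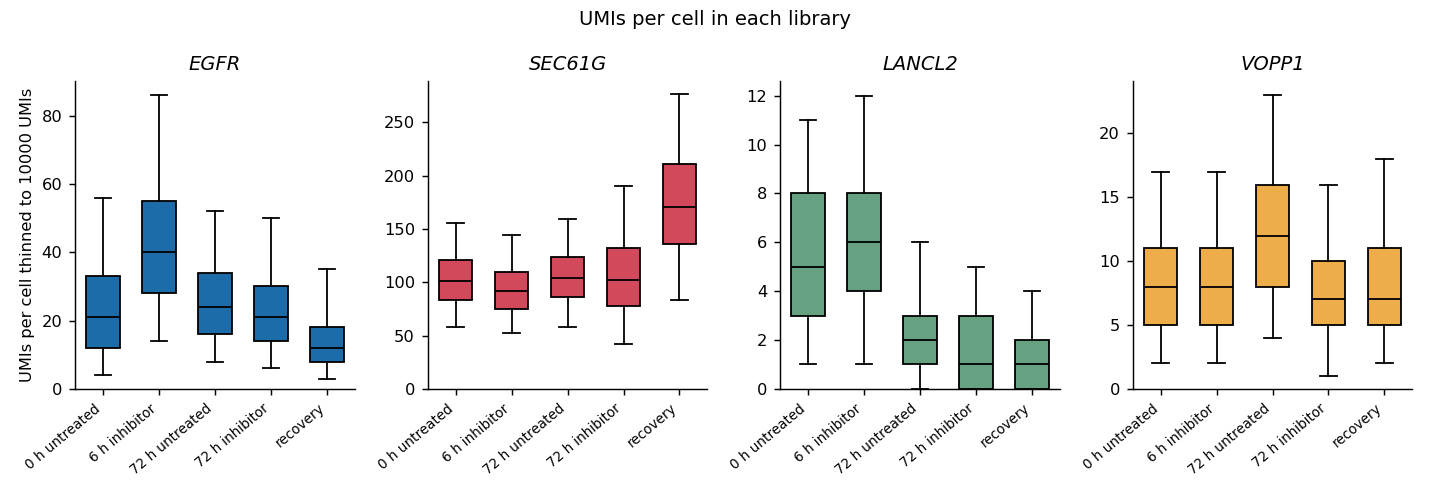
UMIs per cell thinned to 10000 UMIs (vertical axis, from 0) in each library, with the median as a line, the box from the 25th to the 75th percentile and whiskers from the 5th to the 95th. The EGFR box moves up as a whole at 6 h on inhibitor (median 40 against 21), the SEC61G box in recovery (171 against 102), and LANCL2 goes from medians of 5 and 6 in the first 2 libraries to 2, 1 and 1 in the others.

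EGFR varied widely between cells of 1 library. Its coefficient of variation was 0.75 at 0 h, 0.54 at 6 h on inhibitor, 0.57 at 72 h untreated, 0.67 at 72 h on inhibitor and 0.74 in recovery, where counting alone would give 0.15 to 0.26. At 0 h the 90th percentile was 7.5 times the 10th. The Fano factor, the variance over the mean, was 13.9 at 0 h, and 2 of 98 genes of similar mean (0.5 to 2 times) exceeded it, with a median of 2.12 among them. In the other libraries it was 8.14 to 12.6, exceeded by 4 to 7 of 48 to 137 such genes. SEC61G had a lower coefficient of variation, 0.32 to 0.52, where counting alone would give 0.08 to 0.10 at its higher mean. Its Fano factor was below that of EGFR at 0 h (11.4) and 6 h (11.1). It was above that of EGFR at 72 h untreated (10.6 against 8.35), at 72 h on inhibitor (29.3 against 10.6) and in recovery (21.4 against 8.14). The value at 72 h on inhibitor includes a cell with 1120 SEC61G UMIs. The 2 genes differ in mean, so these Fano factors are not on like terms. Of genes with a mean similar to SEC61G, 2 of 8 exceeded it at 0 h and 3 of 10 at 6 h. At 72 h 3 of 8 did in untreated cells and 1 of 12 on inhibitor. In recovery 3 of 5 did, with a median of 44.4.

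Within a library, cells high in EGFR tended to be high in VOPP1 and LANCL2. Spearman's rho over cells, given as a description, was between 0.29 and 0.52 for EGFR and VOPP1 (median 0.50), between 0.31 and 0.43 for EGFR and LANCL2 (0.34), and between 0.25 and 0.36 for LANCL2 and VOPP1 (0.31). Ranked among 3155 genes of mean 50 CPM or more (ribosomal protein and mitochondrial genes, MALAT1 and clone-named genes left out), EGFR was the gene with the highest rho to VOPP1 in all 5 libraries. It was also the highest for LANCL2 in 4 libraries, where VOPP1 was highest in the fifth. For EGFR itself, VOPP1 ranked 1st in 3 libraries and 19th at worst. Among 3238 genes, with MALAT1 and ribosomal protein genes kept in, VOPP1 had the highest median rho to EGFR. The nuclear RNAs MALAT1 (0.46) and NEAT1 (0.44) came next, then RASAL2 (0.38) and ST6GALNAC5 (0.37). The lowest was GAPDH (-0.40), a glycolytic enzyme gene. The cells of a library share its handling and depth.

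SEC61G went the other way. Its rho with EGFR was -0.30 at 0 h, -0.06 at 6 h on inhibitor, -0.20 at 72 h untreated, -0.01 at 72 h on inhibitor and -0.21 in recovery. The gene with the highest rho to SEC61G was CHCHD2 in all 5 libraries (0.40 to 0.55), a neighbour 1.09 Mb from EGFR. With EGFR itself CHCHD2 had a rho of -0.48 to -0.19. By median over libraries, GAPDH (0.33) and FAU (0.31) came next for SEC61G, and neither lies within 5 Mb of EGFR. General measures of the cell moved with the 4 genes. EGFR had a rho of 0.26 to 0.61 with MALAT1, a nuclear RNA, 0.47 to 0.72 with the number of genes detected, and -0.60 to -0.38 with ribosomal protein UMIs. SEC61G had -0.49 to -0.35 with MALAT1, -0.58 to -0.22 with genes detected and -0.02 to 0.43 with ribosomal protein UMIs. LANCL2 and VOPP1 had the signs of EGFR for all 3 measures in every library.

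With these 3 measures taken out (partial rho, an analysis added after the first values were seen), all 6 pairs of the 4 genes were positive in all 5 libraries. This was not particular to the 4 genes. The neighbour CCT6A was also positive with each in every library (lowest 0.07 for EGFR, 0.12 for SEC61G, 0.04 for LANCL2 and VOPP1). So were NIPSNAP2 and MRPS17. CHCHD2 had a median of -0.05 with EGFR, and the neighbours PSPH and SUMF2 were below 0 with SEC61G in some libraries. EGFR and SEC61G turned to 0.06 to 0.22 (median 0.17), SEC61G and LANCL2 to 0.06 to 0.17 (0.14), and SEC61G and VOPP1 to 0.11 to 0.21 (0.16). EGFR and VOPP1 were then at 0.14 to 0.30 (0.28) and EGFR and LANCL2 at 0.11 to 0.20 (0.18). EGFR still had the highest partial rho of all genes to VOPP1 in 4 libraries, and was at worst 5th. For LANCL2, CCT6A was 1st in 2 libraries, EGFR ranked between 1st and 4th, VOPP1 between 1st and 4th, and SEC61G between 2nd and 23rd of 3155 genes. For VOPP1, SEC61G ranked between 1st and 12th, where it had ranked between 2041st and 3085th before. Ranks were lower from the side of the other genes. For EGFR, the worst ranks were 62nd for VOPP1 (6 h), 75th for LANCL2 (0 h) and 168th for SEC61G (recovery). For SEC61G they were 183rd for VOPP1 (72 h on inhibitor), 403rd for EGFR and 429th for LANCL2 (both recovery). There CHCHD2 was 1st in 3 libraries and 9th at worst, and CCT6A ranked between 2nd and 36th.

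**Figure D5:**
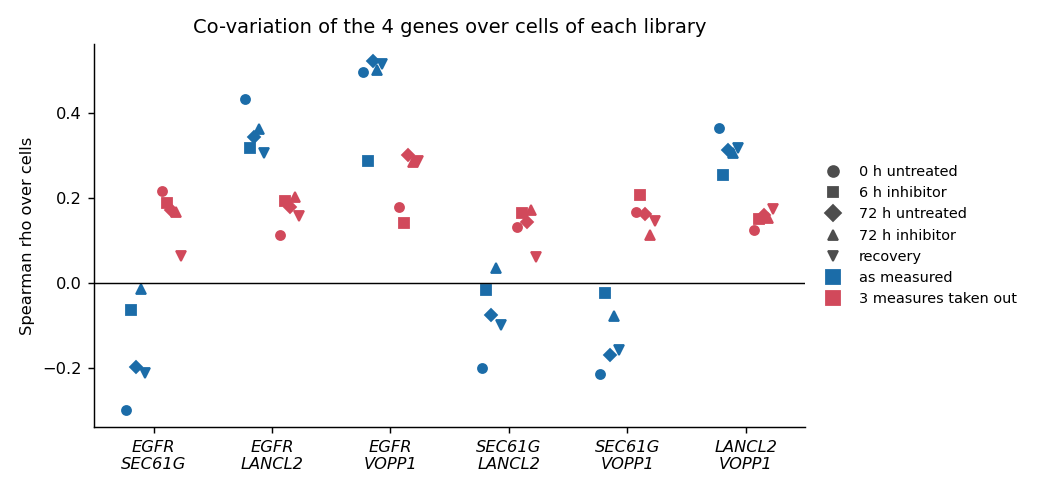
Spearman's rho over cells (vertical axis) for the 6 pairs of genes (horizontal axis), with 1 symbol per library, in blue as measured and in red with ribosomal protein UMIs, MALAT1 UMIs and the number of genes detected taken out. Pairs with SEC61G lie mostly below 0 as measured and between 0.06 and 0.22 with the 3 measures taken out, where every pair in every library is above 0.

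Some cells were high in all 4 genes. Cells above their own library's 95th percentile for all 4 numbered 4 of 3678 at 0 h, 1 of 2987 at 6 h on inhibitor, 1 of 2858 at 72 h untreated, 4 of 1793 at 72 h on inhibitor and 3 of 3295 in recovery. Cells above it for exactly 3 genes numbered 7, 13, 6, 9 and 22 in the same order. The percentile for LANCL2 was only 11, 12, 6, 5 and 4 UMIs, and doublets were kept. Whether these counts are unusual for 4 genes was not tested. A single cell at 72 h on inhibitor, chosen after its values were seen, was extreme. Of its 10000 thinned UMIs 1120 were SEC61G, 141 EGFR, 103 LANCL2 and 59 VOPP1, against library medians of 102, 21, 1 and 7.

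The same cell had 137 UMIs of CHCHD2, 94 of CCT6A, 17 of MRPS17 and 16 of NIPSNAP2, each above the library's 99th percentile (61, 28, 8 and 8). PSPH (6 against 4) and PHKG1 (3 against 2) were also above it, and SUMF2 (2 against 5) was not. GRB10, ZNF713 and NUPR2 were at 0, which is also their library median. Its 52177 UMIs before thinning were exceeded by 34.3% of the library's cells, and 2.39% of them were mitochondrial. Without the 3 cells highest for LANCL2, the Fano factor of LANCL2 at 72 h on inhibitor was 1.58 in place of 5.22. The other libraries had 1.43 to 1.82 without their 3 highest. The extreme cell was its library's highest for LANCL2, and the same choice elsewhere gave mixed cells. At 0 h that cell had 144 SEC61G and 64 EGFR UMIs (library medians 101 and 21). At 6 h on inhibitor it had 8 SEC61G UMIs (median 92) and 109 EGFR (40). At 72 h untreated it had 11 EGFR UMIs (median 24), and in recovery 142 SEC61G (171). The cells next highest for LANCL2 at 72 h on inhibitor and at 0 h were above the 99th percentile for all 4 genes. At 72 h on inhibitor that cell had 407 SEC61G, 106 EGFR, 36 LANCL2 and 37 VOPP1 UMIs. At 0 h it had 337, 132, 28 and 36. In the remaining libraries the next cell was below the SEC61G median, with 62 UMIs at 6 h, 74 at 72 h untreated and 108 in recovery.

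Cell cycle class and depth touched the levels of the genes within a library. Cells whose S phase UMIs exceeded the 0 h library's 90th percentile, and whose G2/M UMIs did not, had a mean of 29.7 EGFR UMIs at 0 h and 51.6 at 6 h on inhibitor, against 24.5 and 43.4 in cells low in both cell cycle lists. Only 19, 2 and 1 such S phase cells were found at 72 h untreated, at 72 h on inhibitor and in recovery. In recovery, cells high in G2/M genes had 12.3 EGFR and 181 SEC61G UMIs, against 17.7 and 165 in the low cells. Low cells made up 75.5% at 72 h on inhibitor and 41.7% in recovery. By depth, EGFR went from 1735 CPM in the 25% of recovery cells with fewest UMIs to 1292 in the 25% with most, and SEC61G from 15830.2 to 19368. At 0 h EGFR went the other way, from 2041 to 2581.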

How the data were processed

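Single cells of 5 libraries, 1 per group, were captured with a 10x 3′ v3.1 kit, per the labels' protocols. Cell Ranger 7.1.0 and GRCh38 are named in the submitters' processing notes. The authors deposited raw UMI counts per gene and cell, and whether intronic reads or strand were used is not given in the sources used here. Cells were kept from 1000 detected genes upward and up to 20% mitochondrial UMIs. Their counts were summed per library and scaled to counts per 1000000 UMIs (CPM). Ratios were formed over genes of at least 10 CPM in either library, with exact conditional (Clopper-Pearson) 95% intervals. Intervals for levels are exact Poisson and those for shares of cells exact binomial. A gene more than 1.5-fold apart was counted, and with 1 library per group no test was made. Cells were thinned to 10000 UMIs for per-cell values, and doublets were not removed.

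The 4 genes and the gene lists were chosen with earlier results of these data known. Named genes were the 4 genes, neighbours of mean 10 CPM or more within 5 Mb, up to 4 genes per list and comparison with the largest ratio at 20 CPM or more (a selection is printed), the other ERBB receptors, SEC61 subunits, LANCL paralogs and WWOX, and the genes most like each; some genes that this rule names are not reported here. On simulated counts for 72 h on inhibitor against 72 h untreated, over 9346 genes, 200 of 200 changed genes had the right direction and 93.5% of intervals held the true ratio. The simulated counts had counting error only and no spread between libraries. They check the calculation and not how well the real ratios would repeat. TMM factors came from edgeR 4.0.16 under R 4.3.3, and all else from Python 3.11.15 with pandas 2.3.3, numpy 2.4.6, scipy 1.17.1 and matplotlib 3.10.9. Alternatives covered scaling, gene and cell filters, weighting, cell cycle class, the untreated library, the fold and the thinning depth.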

Additional observations from a re-analysis of the deposited data

How the results depend on the processing

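No paired analysis was possible because each group has 1 library, so no replicate could be left out either. The 8 ratios past 1.5-fold kept their direction in all 72 alternative values between the same libraries and stayed past 1.5-fold in 64 of them. A change of the untreated library is not in that count. Against 0 h untreated, VOPP1 at 72 h on inhibitor was only 1.09-fold lower. EGFR at 6 h, and EGFR, SEC61G and LANCL2 in recovery, stayed past 1.5-fold against the other untreated library. In the order median-of-ratios scaling, TMM scaling, totals that leave out mitochondrial and ribosomal protein genes, the log2 ratio of EGFR was 0.13, 0.12 and 0.017 for 72 h on inhibitor against 72 h untreated (-0.10 as reported), 0.66, 0.69 and 0.81 for 6 h on inhibitor against 0 h, -0.72, -0.73 and -0.84 for recovery against 72 h on inhibitor, -0.59, -0.61 and -0.83 for recovery against 72 h untreated, and -0.21, -0.18 and 0.026 between the untreated libraries. Without the 5% of cells with most UMIs it was -0.13, 0.81, -0.73 and 0.068 (recovery against 72 h untreated moved less). With equal weight per cell it was 0.0022, -0.78, -0.77 and 0.11 (6 h moved less), and in the cells low in cell cycle genes -0.19, -0.45, -0.63 and 0.11 (6 h moved less again). In cells with 20000 UMIs or more and up to 10% mitochondrial ones, added after seeing the data, it was -0.13, 0.82, -0.77, -0.89 and 0.040. Against the other untreated library it was -0.051 at 72 h on inhibitor, 0.77 at 6 h and -0.79 in recovery.

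The count of genes apart at 72 h on inhibitor was 0 under both scalings, without mitochondrial and ribosomal protein genes, with equal weight and at 2-fold. At 2-fold it was also 0 for 6 h and for both recovery comparisons. It was 2 for 6 h against 72 h untreated, 1 for recovery against 72 h on inhibitor in low-cycle cells, and 2 between the untreated libraries in those cells. With no minimum level, 49.1%, 35.2%, 48.0% and 47.1% of all genes were past 1.5-fold (72 h on inhibitor, 6 h, recovery against 72 h on inhibitor, untreated libraries). With the 3 cell measures taken out, the median rho was 0.17 for EGFR and SEC61G, 0.14 for SEC61G and LANCL2 and 0.16 for SEC61G and VOPP1, all below 0 as measured, and 0.18 and 0.28 for EGFR with LANCL2 and VOPP1. At 5000 UMIs the rho of EGFR and LANCL2 was 0.25 and the median coefficient of variation of EGFR 0.78 in place of 0.67. The cause of these shifts was not tested. The depth leaves LANCL2 at 1 or 2 UMIs in the median thinned cell of 3 libraries, which limits its per-cell values.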
